A study of Mus musculus with 15 samples.

Results

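Oligodendrocytes, the myelin-forming cells of the central nervous system, arise from precursors that persist and divide in the adult brain. A precursor that begins to differentiate leaves the cycle, passes through a committed stage and a premyelinating stage, and then switches on the myelin genes. The 9 genes described here are commonly used to follow the first of these steps. Pdgfra, Cspg4, Vcan, Lhfpl3 and C1ql1 are markers of the precursor, and Gpr17, Bcas1 and Enpp6 are markers of committed and newly forming oligodendrocytes. Neu4 is not assigned to either stage here. They were chosen by symbol, with earlier results of these data known, and each matched 1 entry of the 26595 genes in the deposited table. Every one of the 9 passed the filter on low values, a value of 10 or more in 3 or more libraries, which left 17030 genes for testing.

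RNA was sequenced in bulk from 2 brain tissues, cerebral cortex and striatum, of C57Bl/6 male mice 5 months old. The mice were wild type (WT) or SLC1a4 -/- (KO), that is, without the gene of ASCT1, a transporter of serine, alanine and other small neutral amino acids. Strain, sex and age were the same in all 4 groups, which held 4 WT cortex, 4 KO cortex, 4 WT striatum and 3 KO striatum libraries. Replicates carry the numbers 5 to 8 in WT and 1 to 4 in KO, of which KO striatum has 2, 3 and 4. The labels do not say which exons were deleted or whether each library came from its own animal, so the p-values speak only of the spread among the libraries, which may be technical. In bulk tissue, fewer cells of a type and less RNA per cell cannot be told apart.

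Libraries held 22990233 to 30276815 counted reads. The targeted gene, Slc1a4, averaged 1624 ± 127 normalized counts in WT cortex and 265 ± 28.7 in KO cortex (SD, n = 4 each), and 1533 ± 217 in WT striatum (n = 4) and 271 ± 99.3 in KO striatum (n = 3), so the genotype labels matched in all 15 libraries. Of 14 markers of striatal projection neurons, 14 were higher in WT striatum than in WT cortex, and 11 of 14 markers of cortical excitatory neurons were lower, so both lists followed the tissue labels. Some striatum libraries stood apart. Summed over 14 choroid plexus markers, KO striatum 4 held 155662 and WT striatum 5 held 227735 normalized counts, against 10063 to 20259 in the other 5. Summed over 12 markers of thalamus and septum, KO striatum 4 held 57486 and WT striatum 8 held 34889, against 8721 to 16655 in the other 5. KO striatum 4 also had the lowest sum of striatal neuron markers of the 7, 70287, against 124986 to 258122.

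The promoters of 3 of the genes are shown because the 3 genes all rose from WT cortex to WT striatum, Lhfpl3 and Enpp6 by the widest margins of the 9 and Pdgfra by the narrowest of those that passed the test. Each stretch is the 250 bases before the RefSeq transcription start in GRCm38.p6, on the plus strand, 5′ to 3′, with E-boxes in capitals. An E-box is the sequence CANNTG, a pattern that every site meets on both strands. It is bound by basic helix-loop-helix factors, the class to which Olig1 and Olig2 belong. The Lhfpl3 stretch lies at chr5:22745804-22746053, that of Pdgfra at chr5:75152001-75152250 and that of Enpp6 at chr8:46986637-46986886.
Lhfpl3: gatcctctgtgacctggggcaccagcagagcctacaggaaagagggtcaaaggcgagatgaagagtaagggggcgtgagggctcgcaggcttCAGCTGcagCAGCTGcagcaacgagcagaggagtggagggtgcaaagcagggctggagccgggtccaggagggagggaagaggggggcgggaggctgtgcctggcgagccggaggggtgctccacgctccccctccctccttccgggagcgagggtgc
Pdgfra: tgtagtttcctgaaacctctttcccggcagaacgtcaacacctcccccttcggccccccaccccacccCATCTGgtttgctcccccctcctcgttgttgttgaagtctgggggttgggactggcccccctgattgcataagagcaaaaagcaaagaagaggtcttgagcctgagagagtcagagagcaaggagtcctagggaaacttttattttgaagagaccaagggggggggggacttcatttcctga
Enpp6: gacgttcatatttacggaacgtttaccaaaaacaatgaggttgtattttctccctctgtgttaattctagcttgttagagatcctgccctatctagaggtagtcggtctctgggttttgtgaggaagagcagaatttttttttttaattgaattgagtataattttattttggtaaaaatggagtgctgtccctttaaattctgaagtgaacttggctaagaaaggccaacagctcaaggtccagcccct
Lhfpl3 has 2 E-boxes, at 158 and 149 bases before the start, Pdgfra has 1 at 182 bases, and Enpp6 has none in this window. Of the 9 genes, 6 had a promoter used here, and 4 of those 6 held an E-box, against 66.2% of 32851 mouse promoters of the same length. The core ACAAAG, read by Sox factors and searched on both strands, occurred in 0 of the 6 and in 16.5% of all promoters. GC content was 67.2% in the Lhfpl3 stretch, 54.4% in that of Pdgfra and 38.4% in that of Enpp6, against a median of 52.4% over all promoters. A match to these letters is a description and does not mark a bound site.

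Within WT, 8 of the 9 early lineage genes were higher in striatum than in cortex (limma, Benjamini-Hochberg adjusted over 17030 genes, threshold 0.05). Their fitted folds ran from 1.26 for Pdgfra to 3.36 for Lhfpl3, and that of Cspg4, which did not pass, was 1.17. The tissues differed widely: 50.5% of all genes tested passed in this comparison, 24.9% higher and 25.7% lower in striatum. The median log2 fold change of the 9 was 0.68, beside 0.01 over all genes. The values of the 2 groups did not overlap for 6 of the 9, all but Pdgfra, Cspg4 and Gpr17, and each of the 6 was higher in striatum. Over all genes tested the groups did not overlap for 47.3%, with striatum higher for 23%. Within KO, 7 of the 9 were higher in striatum and none was lower, where 37.9% of all genes passed, 18.4% higher and 19.5% lower. Their median log2 fold change was 0.58, beside 0.0024 over all genes. In KO the groups did not overlap for 8 of the 9, all but Gpr17, again with striatum higher, beside 41.5% of all genes, 20.1% with striatum higher. Cspg4 was the only one of the 9 that passed in neither genotype.

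**Figure D1:**
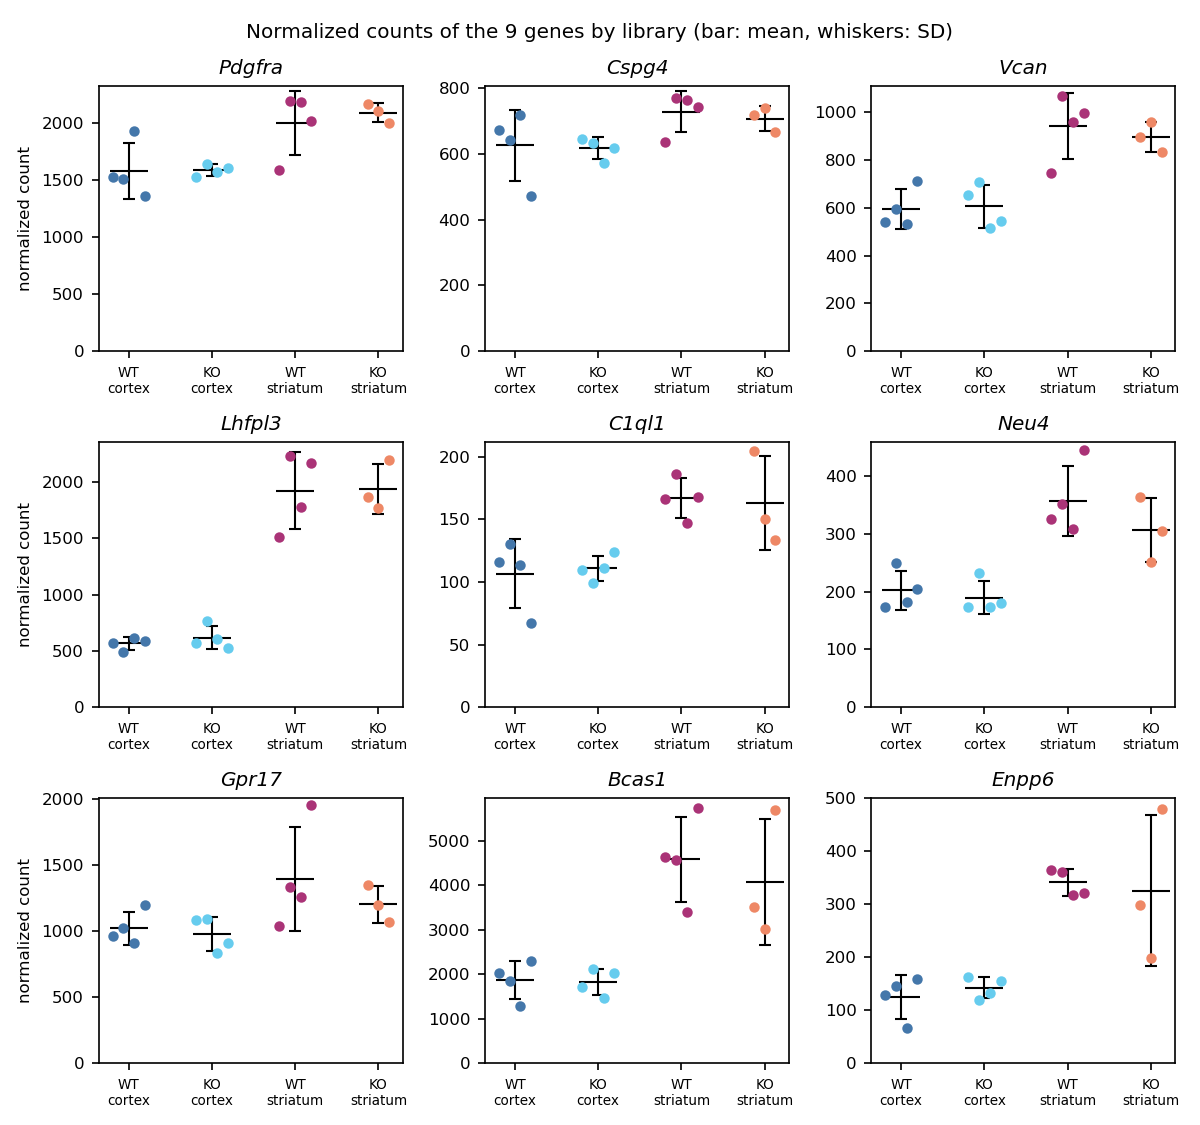
Normalized count (y axis, from 0) of each of the 9 genes in each library (points), by tissue and genotype (x axis), with the group mean as a bar and the SD as whiskers. The striatum points of Lhfpl3, Bcas1 and Enpp6 lie above all cortex points, whereas those of Gpr17 and Cspg4 reach into the cortex range, and KO and WT overlap in every panel.

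Pdgfra, the receptor for PDGF-A that drives precursor division, stood at 1527, 1506, 1926 and 1357 normalized counts in WT cortex replicates 5 to 8. In WT striatum replicates 5 to 8 it stood at 1591, 2191, 2181 and 2019. The ranges overlapped, because WT striatum 5 was low and WT cortex 7 was high. Pdgfra differed between the WT tissues by a log2 fold change of 0.34 (SE 0.11, limma adjusted p = 0.0155). Without WT cortex 8 the adjusted p was 0.0551 and without WT striatum 6 it was 0.0506. In KO cortex replicates 1 to 4, Pdgfra stood at 1522, 1641, 1571 and 1607, and in KO striatum 2 to 4 at 2163, 2105 and 1999.5. Here no striatum library fell within the cortex range. Between the KO tissues the log2 fold change of Pdgfra was 0.40 (SE 0.11, limma adjusted p = 0.0131).

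Cspg4 encodes NG2, the membrane proteoglycan that gives precursors their other name, NG2 glia, and that pericytes also carry. It stood at 672, 642, 718 and 471 normalized counts in WT cortex 5 to 8 and at 637, 768, 764 and 743 in WT striatum 5 to 8. All but WT striatum 5 lay above the cortex libraries. In KO the values were 645, 634, 571 and 619 in cortex 1 to 4 and 718, 737.5 and 665 in striatum 2 to 4, with no overlap. The log2 fold change of Cspg4 was 0.23 in WT (SE 0.11, limma adjusted p = 0.0903, 95% interval of the fold 0.999 to 1.38) and 0.20 in KO (SE 0.12, adjusted p = 0.209, interval 0.962 to 1.36). In WT, Cspg4 passed when WT cortex 7 was left out (adjusted p = 0.0381) and when WT striatum 5 was left out (0.0448).

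Vcan encodes versican, a secreted chondroitin sulfate proteoglycan of the precursor's surroundings. It ranged from 533 to 711 normalized counts in WT cortex and from 745 to 1066 in WT striatum, a log2 fold change of 0.66 (SE 0.13, limma adjusted p = 0.000595). In KO it ranged from 513 to 707 in cortex and from 833 to 958 in striatum, with a log2 fold change of 0.58 (SE 0.14, adjusted p = 0.00439). The lowest striatum library lay above the highest cortex library in both genotypes.

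Lhfpl3, a tetraspan membrane protein used as a precursor marker, showed the largest tissue difference of the 9. Its normalized counts were 574, 489.7, 618 and 587 in WT cortex 5 to 8 and 1509, 2235, 1778 and 2174 in WT striatum 5 to 8. In KO they were 571, 765, 606 and 527 in cortex 1 to 4 and 1865, 1768 and 2192 in striatum 2 to 4. The lowest striatum library of either genotype lay far above the highest cortex library. The log2 fold change of Lhfpl3 was 1.75 in WT (SE 0.13, 3.36-fold, limma adjusted p = 1.34e-07) and 1.66 in KO (SE 0.15, 3.16-fold, adjusted p = 9.65e-07). A noncoding gene on the opposite strand, A930003O13Rik, shares 17.65% of the Lhfpl3 exon bases. Because the sources used here do not state whether counting used strand, reads in that stretch cannot be assigned to one of the pair. A930003O13Rik averaged 12.5 ± 4.66 normalized counts in WT cortex and 36.7 ± 9.28 in WT striatum (SD, n = 4 each).

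C1ql1, a secreted C1q-like protein that binds the adhesion receptor Adgrb3, ranged from 67.2 to 130.3 normalized counts in WT cortex and from 147 to 186 in WT striatum, a log2 fold change of 0.68 (SE 0.19, limma adjusted p = 0.00735). In KO it ranged from 99.2 to 124 in cortex and from 133 to 205 in striatum, a log2 fold change of 0.53 (SE 0.20, adjusted p = 0.0492). The KO call was marginal: leaving out 1 library ended it in 12 of 15 fits, with adjusted p from 0.0115 to 0.213 over the 15, and without KO striatum 2, the highest library for C1ql1, the log2 fold change was 0.35. Neu4, a sialidase, ranged from 173 to 249 in WT cortex and from 307 to 444 in WT striatum. Its log2 fold change was 0.82 in WT (SE 0.15, limma adjusted p = 0.000485) and 0.69 in KO (SE 0.17, adjusted p = 0.00469). In KO it ranged from 173 to 231 in cortex and from 251 to 362 in striatum, so that neither genotype had tissues that overlapped.

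Gpr17, a receptor that marks committed precursors before they myelinate, stood at 963, 1028, 910.4 and 1199 normalized counts in WT cortex 5 to 8. In WT striatum 5 to 8 it stood at 1039.5, 1333, 1263 and 1955. One library, WT striatum 8, lay well above the rest, and WT striatum 5 lay within the cortex range. The log2 fold change of Gpr17 in WT was 0.42 (SE 0.16, limma adjusted p = 0.0397). It no longer passed without WT cortex 5, 6 or 7 or without WT striatum 6 or 8. Without WT striatum 8 the log2 fold change was 0.24 (adjusted p = 0.125). In KO, Gpr17 stood at 1089, 1093, 837 and 913 in cortex 1 to 4 and at 1350.0, 1199 and 1071 in striatum 2 to 4. The KO groups overlapped, and the log2 fold change of 0.30 (SE 0.17) did not pass (limma adjusted p = 0.186). Lims2, a neighbour on the opposite strand, shares 3.62% of the Gpr17 exon bases.

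Bcas1, a protein of newly forming and myelinating oligodendrocytes, stood at 2034, 1851, 1296 and 2296 normalized counts in WT cortex 5 to 8 and at 4639, 4576, 3399 and 5744 in WT striatum 5 to 8. In KO it stood at 1721, 2114, 1469 and 2032 in cortex 1 to 4 and at 3523, 3017 and 5692 in striatum 2 to 4. Every striatum library lay above every cortex library. Bcas1 had a log2 fold change of 1.30 in WT (SE 0.21, 2.47-fold, limma adjusted p = 0.000157) and 1.11 in KO (SE 0.23, 2.16-fold, adjusted p = 0.00164). An antisense gene, Bcas1os1, shares 11.66% of the Bcas1 exon bases, with the same limit as for Lhfpl3.

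Enpp6, a choline phosphodiesterase switched on briefly as precursors differentiate, stood at 129, 145, 66.7 and 159 normalized counts in WT cortex 5 to 8. In WT striatum 5 to 8 it stood at 365, 361, 317 and 321, 4 close values that were all above the cortex range. In WT the log2 fold change of Enpp6 was 1.51 (SE 0.26, 2.85-fold, limma adjusted p = 0.000267). In KO it stood at 162, 119.8, 132 and 156 in cortex 1 to 4 and at 298, 199 and 479.5 in striatum 2 to 4. KO striatum 4 was far above KO striatum 3, yet both lay above the cortex range. The KO difference of Enpp6 was 2.15-fold (95% interval 1.41 to 3.27, limma adjusted p = 0.00691), and its log2 fold change was 0.78 without KO striatum 4 and WT striatum 8 (adjusted p = 0.0423).

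**Figure D2:**
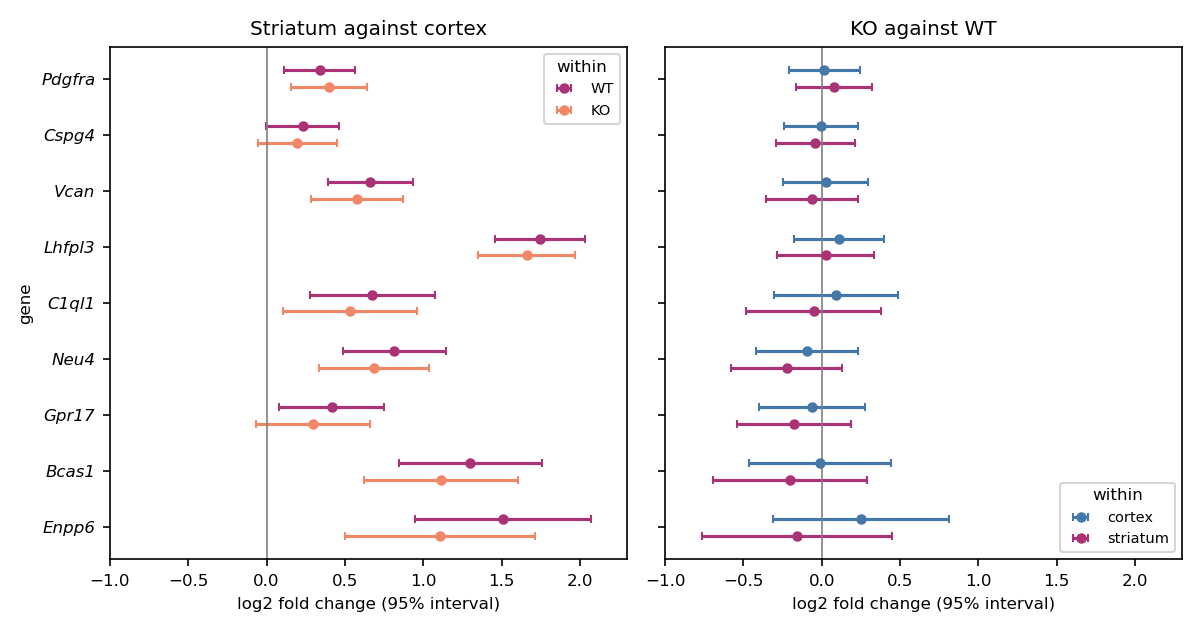
Log2 fold change (x axis) with its unadjusted 95% interval for each of the 9 genes, for striatum against cortex within each genotype (left) and KO against WT within each tissue (right). All 9 estimates on the left are above 0, from 0.23 to 1.75 in WT and from 0.20 to 1.66 in KO, and all 18 intervals on the right include 0.

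None of the 9 genes passed the test between KO and WT. In cortex, where 0.00587% of all genes passed (1 gene, Slc1a4), the count was 0 of 9, and in striatum, where 0.0763% passed (0.0705% higher and 0.00587% lower in KO), it was 0 of 9. At an unadjusted p below 0.05 with limma the count was again 0 of 9 in cortex, where 2.51% of all genes passed that line, and 0 of 9 in striatum, where 15.3% did. It was 0 of 9 in both tissues past the adjusted threshold with edgeR, DESeq2 and voom on the recovered reads. KO and WT libraries overlapped for all 9 genes in both tissues. Over all genes tested they did not overlap for 4.02% in cortex and 8.07% in striatum. A p that misses the threshold does not show equal levels, so the intervals matter. In cortex the fitted KO to WT folds ran from 0.938 for Neu4 to 1.19 for Enpp6, and the 95% intervals together spanned 0.724 to 1.75. In striatum the folds ran from 0.857 for Neu4 to 1.06 for Pdgfra, and the intervals spanned 0.589 to 1.37.

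Of the 9 genes, Pdgfra and Cspg4 had the narrowest intervals on the log2 scale in both tissues. The KO to WT fold of Pdgfra in cortex was 1.01 (95% interval 0.865 to 1.18, limma adjusted p = 0.9998) and in striatum 1.06 (0.891 to 1.25, adjusted p = 0.789). For Cspg4 it was 0.997 in cortex (0.848 to 1.17) and 0.973 in striatum (0.817 to 1.16). All 4 intervals lay within those of Enpp6. The widest intervals were those of Enpp6, 0.805 to 1.75 in cortex and 0.589 to 1.37 in striatum, and of Bcas1, 0.724 to 1.36 and 0.619 to 1.22.

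In striatum 7 of the 9 estimates were below 0 in KO, with a median log2 fold change of -0.06 beside 0.01 over all genes, and in cortex 4 of the 9 were below 0, with a median of 0.02 beside 0.0012. The lowest 3 in striatum were Neu4 at -0.22 (SE 0.17, limma adjusted p = 0.540), Bcas1 at -0.20 (SE 0.23, adjusted p = 0.709) and Gpr17 at -0.18 (SE 0.17, adjusted p = 0.644). In the same comparison the 14 striatal projection neuron markers had a median of -0.79, and 0 of the 14 passed. The 14 cortical excitatory neuron markers had a median of 0.81 with 10 above 0, and 1, Neurod2, passed. The part of these markers in the estimates of the 9 genes was not tested. The count of 7 below 0 shifted with the libraries included. It was 4 without KO striatum 4 and WT striatum 8, where Cspg4, Gpr17, C1ql1 and Vcan were above 0 and Lhfpl3 was below, and with 1 library left out it ran from 5 without WT striatum 6 to 9 without WT striatum 5. Without KO striatum 4 and WT striatum 8 the Gpr17 estimate was 0.078 (adjusted p = 0.771), and the Bcas1 estimate stayed below 0 in every alternative run, from -0.47 to -0.01 with 1 library left out. The difference between the KO effects in the 2 tissues passed for 0 of the 9, where 0.00587% of all genes passed, and for 0 of 9 at an unadjusted p below 0.05 with limma, where 4.90% of all genes did. The largest such difference was that of Enpp6, -0.40 (SE 0.39, limma adjusted p = 0.973). The same difference compares the striatum-cortex contrasts of the 2 genotypes. Gpr17, which passed in WT only, is therefore not shown to differ between them (-0.12, SE 0.23, limma adjusted p = 0.991).

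Levels of different genes were compared per kilobase of exon (normalized count divided by GENCODE M21 exon length), since longer transcripts gather more reads. Bcas1 was the most abundant of the 9 in every group, at 495 ± 112 per kb in WT cortex and 1216 ± 254 in WT striatum (SD, n = 4 each). In WT cortex Gpr17 (197 ± 24.2), Lhfpl3 (177 ± 17.1) and Pdgfra (158 ± 24.3) followed, within each other's spread. In WT striatum Lhfpl3 stood above both, at 599 ± 107 per kb against 269 ± 75.5 for Gpr17 and 199 ± 28.0 for Pdgfra. C1ql1 came next in both tissues, at 72.4 ± 18.6 and 113 ± 10.8 per kb. Cspg4, Neu4 and Vcan had means of 52.4, 43.6 and 41.1 per kb in WT cortex, where all 3 overlapped. In WT striatum the order of the means was Neu4 (76.9), Vcan (65.1) and Cspg4 (61.0), where Vcan overlapped both of the others and Neu4 lay above Cspg4 without overlap. Enpp6 was the least abundant, at 19.5 ± 6.38 and 53.2 ± 3.94 per kb, and overlapped Cspg4 and Vcan in WT striatum. In KO the order of Bcas1, Pdgfra, C1ql1 and Enpp6 was as in WT, with the mean of Lhfpl3 ahead of that of Gpr17 in both tissues, within their spread in cortex.

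The precursor genes did not move by one factor between tissues. Lhfpl3 counts divided by Pdgfra counts in the same library were 0.364 ± 0.0523 in WT cortex and 0.965 ± 0.113 in WT striatum (SD, n = 4 each), and 0.389 ± 0.0572 in KO cortex (n = 4) and 0.933 ± 0.142 in KO striatum (n = 3). The lowest striatum ratio, 0.815, lay above the highest cortex ratio, 0.466. Gpr17 over Pdgfra, by contrast, was 0.668 ± 0.170 in WT cortex and 0.702 ± 0.180 in WT striatum, with ranges that overlapped. Bcas1 over Pdgfra was 1.23 ± 0.422 and 2.35 ± 0.648 in the WT tissues, and the ranges, 0.673 to 1.69 and 1.56 to 2.92, overlapped.

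Bcas1 kept close to the myelin gene Mbp, which encodes myelin basic protein. The Bcas1 to Mbp ratio was 0.0663 ± 0.0064 in WT cortex, 0.0675 ± 0.0055 in KO cortex and 0.0615 ± 0.0052 in WT striatum (SD, n = 4 each), and 0.0648 ± 0.0069 in KO striatum (n = 3). The 4 groups overlapped in this ratio, although Mbp itself rose 2.65-fold between the WT tissues (log2 fold change 1.41, SE 0.23, limma adjusted p = 0.000131). Pdgfra over Mbp went from 0.0622 ± 0.0342 to 0.0278 ± 0.0080 as group means in WT, with no overlap between WT cortex, 0.0370 or more, and WT striatum, 0.0366 or less.

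**Figure D3:**
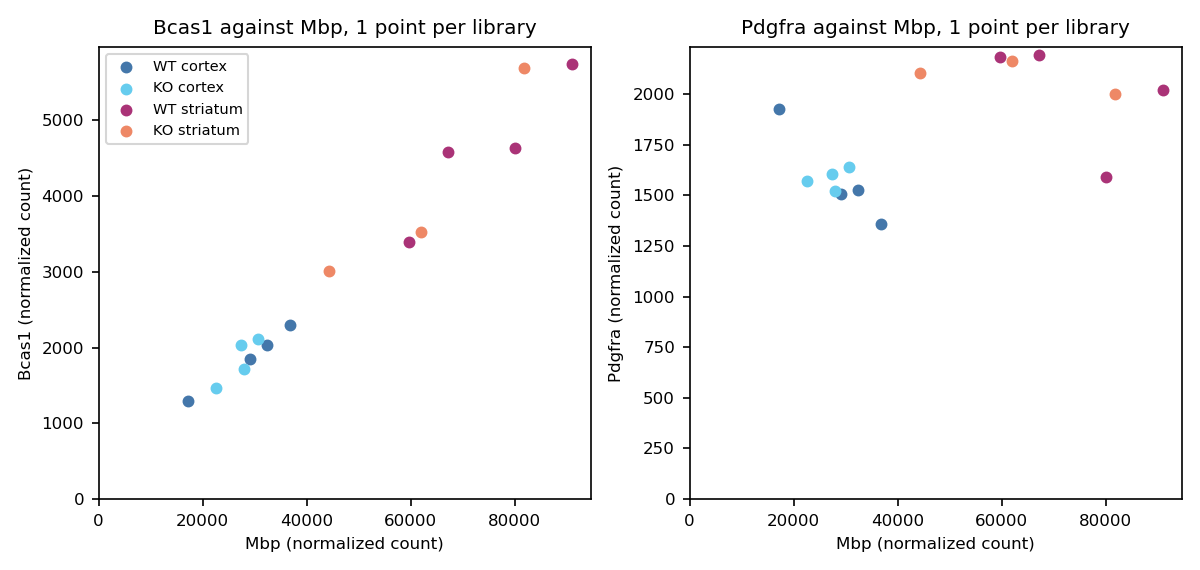
Normalized counts of Bcas1 (left) and Pdgfra (right) on the y axes against Mbp on the x axes, 1 point per library, coloured by group. Bcas1 goes up with Mbp across all 15 libraries at a ratio of 0.0615 to 0.0675 in group means, whereas Pdgfra stays between 1357 and 2191 over the same span of Mbp.

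Libraries of 1 group also differed among themselves. In WT cortex 7 and 8, Pdgfra and Cspg4 stood opposite to Bcas1 and Enpp6. In WT cortex 5 and 6, by contrast, Cspg4, Bcas1 and Enpp6 all lay above their group means on the log2 scale. WT cortex 7 had the highest value of its group for Pdgfra, Cspg4 and Lhfpl3 and the lowest for Gpr17, Bcas1, Vcan and Enpp6. WT cortex 8 was the reverse for 6 of those 7, with the highest Gpr17, Bcas1, Vcan and Enpp6 and the lowest Pdgfra and Cspg4. Mbp was also lowest in WT cortex 7, at 17111 normalized counts, and highest in WT cortex 8, at 36712. In striatum, WT 5 was lowest of its group for 5 genes (Pdgfra, Cspg4, Lhfpl3, Gpr17 and Vcan), WT 8 was highest for Gpr17, Bcas1 and Neu4, and KO 4 was highest for Lhfpl3, Bcas1 and Enpp6 and lowest for the precursor genes Pdgfra, Cspg4, C1ql1 and Vcan and for Gpr17. These libraries were singled out after their values were seen.

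**Figure D4:**
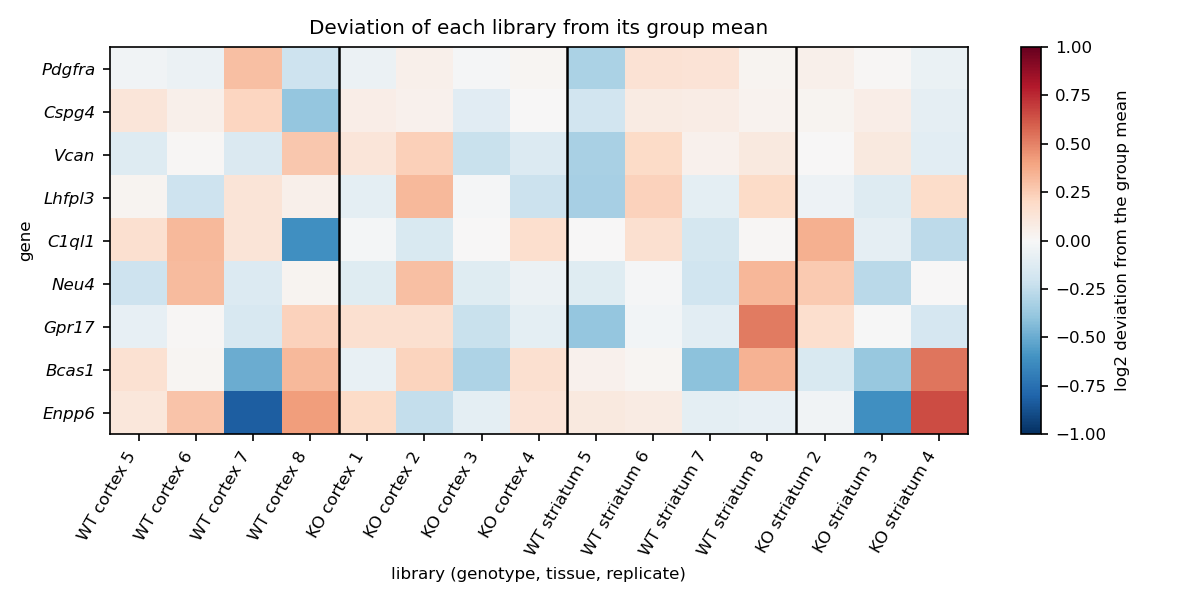
Log2 deviation of each library (x axis) from its own group mean for each of the 9 genes (y axis), red above and blue below the mean, with groups parted by vertical lines. WT cortex 7 is red for Pdgfra, Cspg4 and Lhfpl3 and blue for Bcas1 and Enpp6, WT cortex 8 is nearly its mirror image, and KO striatum 4 is red for Bcas1 and Enpp6.

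WT striatum 5, WT striatum 8 and KO striatum 4 are the libraries that stood apart in choroid plexus or in thalamus and septum markers. None of the 14 choroid plexus markers was at 0 in any library, and of the 12 others 1, Gbx2, was at 0 in some. The part of those markers in the values of the 9 genes was not tested. Leaving the libraries out gave the size of the tissue differences without them. Without KO striatum 4 and WT striatum 8, 7 of the 9 passed in WT and 8 in KO, with log2 fold changes in WT of 1.68 for Lhfpl3, 1.54 for Enpp6 and 1.19 for Bcas1. In KO those of Lhfpl3 and Bcas1 were then 1.57 and 0.84. Without KO striatum 4 and WT striatum 5, 9 of the 9 passed in WT and 7 in KO, with log2 fold changes in WT of 1.86 for Lhfpl3, 1.48 for Enpp6 and 1.29 for Bcas1. Over all genes, 8601 passed between the WT tissues and 6451 between the KO tissues in the main fit. Across the alternatives that hold both exclusions, those counts ran from 7609 to 9846 and from 5283 to 6849. The count of the 9 genes that passed between KO and WT remained 0 in both tissues under both exclusions, while the count over all genes in striatum went from 13 to 862 and to 344.

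The rest of the oligodendrocyte lineage was read from lists of known genes. For these and the lists below, the shares of all genes tested were 24.9% higher and 25.7% lower in WT striatum. In KO striatum they were 18.4% higher and 19.5% lower. Of 22 other precursor genes, 9 rose and 4 fell from WT cortex to WT striatum, with a median log2 fold change of 0.29. The most significant were Cacng4, an auxiliary subunit of AMPA receptors and calcium channels (2.20, SE 0.13, limma adjusted p = 1.20e-08), Stk32a, a kinase (3.37, SE 0.27, adjusted p = 2.09e-07), Xylt1, a xylosyltransferase that starts glycosaminoglycan chains (-1.19, SE 0.15, adjusted p = 2.01e-05), and Olig1, a lineage transcription factor (0.88, SE 0.12, adjusted p = 2.42e-05). Several of these genes, Xylt1, Tnr and Cspg5 among them, are also expressed by other neural cells. Which cells gave the rises, that of Cacng4 included, or the falls was not tested. In KO 9 rose and 2 fell, with a median of 0.34. Of 19 committed and newly formed oligodendrocyte genes, 9 rose and 1, Rras2, fell in WT, and 11 rose and 1 fell in KO, with medians of 0.32 and 0.33. The myelin regulator Nkx6-2 was at 1.42 in WT (SE 0.18, limma adjusted p = 1.29e-05). Tcf7l2, at 3.71 (SE 0.50, adjusted p = 3.00e-05), is a marker of thalamic neurons as well and stands in that list too.

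Mature oligodendrocyte genes gave the most even picture: 20 of 20 rose from cortex to striatum in WT and 19 of 20 in KO, with medians of 1.40 and 1.17. Those of Lhfpl3 and Enpp6 in WT, 1.75 and 1.51, lay above that median, and those of Bcas1 (1.30) and the other 6 genes lay below it. Klk6, a protease of mature oligodendrocytes (2.67, SE 0.37, limma adjusted p = 3.35e-05), and Mal, a myelin proteolipid (1.49, SE 0.20, adjusted p = 3.05e-05), had the smallest p-values of the list. Summed over the 20 genes, mature markers held 66599 to 136453 normalized counts in WT cortex and 244133 to 334436 in WT striatum, and 91633 to 107430 and 167701 to 346212 in KO. The summed 22 other precursor genes held 31042 to 32343 in WT cortex and 32158 to 38718 in WT striatum. The part of a larger number of oligodendrocytes in the tissue differences of the 9 genes was not tested. Between KO and WT, 0 of the 22, 0 of the 19 and 0 of the 20 genes passed in either tissue. The 20 mature genes had a median of -0.26 in KO striatum with 19 of 20 below 0, against 0.01 in cortex, and none of them passed.

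**Figure D5:**
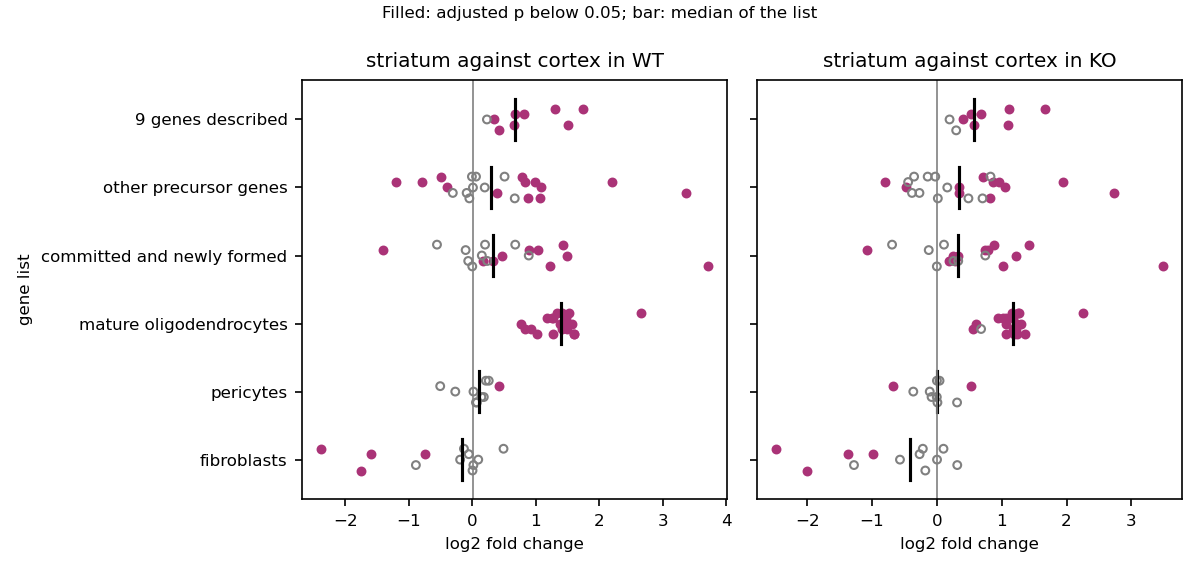
Log2 fold change of striatum against cortex (x axis) for each gene of 6 lists (y axis) in WT (left) and KO (right), filled where the limma adjusted p is below 0.05, with a bar at the median of the list. The mature oligodendrocyte genes gather around 1.40 and 1.17, the 9 genes described here have medians of 0.68 and 0.58, and the other precursor genes lie on both sides of 0.

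Genes that share a pathway or a family with the 9 moved in both directions, as did all genes tested. Of all genes, 24.9% were higher and 25.7% lower in WT striatum, and 18.4% higher and 19.5% lower in KO striatum. Of the 5 PDGF ligand and receptor genes, Pdgfd rose (0.88, SE 0.31, limma adjusted p = 0.0274) and Pdgfb fell (-0.37, SE 0.11, adjusted p = 0.0124) in WT striatum, and in KO Pdgfb fell (-0.44, SE 0.12, adjusted p = 0.00951) with the other 4 not passing. Pdgfa, the main ligand of Pdgfra on precursors, was at -0.05 in WT (SE 0.11, limma adjusted p = 0.749). Of 18 genes of the versican family, hyaluronan and their partners, 5 rose and 3 fell in WT, and 6 rose and 3 fell in KO. Among those that rose in both were the versican-cleaving proteases Adamts4 (1.19 in WT, SE 0.21, limma adjusted p = 0.000249) and Adamts5 (1.02, SE 0.13, adjusted p = 1.99e-05) and the hyaluronan synthase Has1 (1.57, SE 0.28, adjusted p = 0.00029).

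Relatives of single genes within their families were called in both directions. C1ql3, a neuronal relative of C1ql1, fell in WT striatum by 2.81 on the log2 scale (SE 0.36, limma adjusted p = 1.56e-05) and in KO by 1.62 (SE 0.38, adjusted p = 0.00411), and the receptor Adgrb3 was at 0.14 in WT (SE 0.09, adjusted p = 0.203). Neu1, the lysosomal sialidase, fell in WT by 0.43 (SE 0.06, adjusted p = 4.65e-05) and in KO by 0.23 (SE 0.07, adjusted p = 0.0149) where Neu4 rose. In the Enpp family 4 of 5 others rose in WT and 3 of 5 in KO. The smallest p was that of Enpp4 (0.98 in WT, SE 0.12, limma adjusted p = 1.16e-05), while Enpp3 and Enpp1 had larger rises in WT (Enpp1 1.07, SE 0.16, adjusted p = 9.08e-05). Lhfpl5 and Lhfpl4 rose in WT, 2 of the 4 tested relatives of Lhfpl3, and in KO 1 of 4, Lhfpl5, rose.

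Markers of the other cells that carry Pdgfra, Cspg4 or Vcan were checked beside them. Of 10 pericyte markers, 1 rose (Notch3, 0.43, SE 0.12, limma adjusted p = 0.00832) and 0 fell in WT striatum, with sums of 5331 to 7240 normalized counts in WT cortex and 5809 to 7622 in WT striatum. In KO 1 rose and 1 fell, with sums of 6154 to 6868 in cortex and 6118 to 7407 in striatum. Of 12 markers of meningeal and perivascular fibroblasts, 0 rose and 4 fell in WT, among them Fmod (-1.75, SE 0.33, limma adjusted p = 0.000441), and again 0 rose and 4 fell in KO. Their sums ran from 2046 to 4293 in WT cortex and from 1696 to 7014 in WT striatum, and from 2792 to 4752 and from 1752 to 6943 in KO. The upper ends in striatum were WT striatum 5 and KO striatum 4. The remaining striatum libraries held 1696 to 2118 in WT, and 1752 and 1828 in KO. None of the 10 or the 12 markers was at 0 in any library. Their part in the values of Pdgfra, Cspg4 and Vcan was not tested.

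The genes whose pattern over the 15 libraries was most like the mean of the 9 genes, each gene standardised on the log2 scale, were Lsm6 (Pearson r 0.98), Agt (0.97), Ednrb (0.97), Nr2f2 (0.97) and Rimkla (0.97), out of 13433 genes whose mean value was 50 or more. These values describe the 15 libraries, which share tissue and dissection, and r was lower within each tissue for all 5. Within the 8 cortex libraries r was 0.47 for Lsm6, 0.64 for Agt, 0.65 for Ednrb, 0.48 for Nr2f2 and 0.55 for Rimkla. Within the 7 striatum libraries it was 0.88, 0.67, 0.94, 0.68 and 0.57 in the same order. Ednrb, an endothelin receptor of glial cells, averaged 1526 ± 115 normalized counts in WT cortex and 3109 ± 267 in WT striatum (SD, n = 4 each).

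The 9 genes lie on 8 chromosomes (GRCm38). Pdgfra spans chr5:75152292-75198215 and Lhfpl3 chr5:22746059-23275597, both on the plus strand and far apart on the same chromosome. The plus strand also holds Cspg4 at chr9:56865033-56899870, Neu4 at chr1:94020451-94028334 and Enpp6 at chr8:46986887-47096762. The minus strand holds Bcas1 at chr2:170346991-170427845, C1ql1 at chr11:102939264-102946688, Vcan at chr13:89655312-89742509 and Gpr17 on chromosome 18.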

How the data were processed

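RNA-seq libraries of cortex and striatum were analysed from 1 deposited table. Per the submitters' processing notes, the tools were TopHat2 2.1.1, HTSeq 0.6.0, cutadapt 1.1, FastQC 0.11.5 and DESeq2 1.12.4 and the build was GRCm38, with the role of each, the annotation and the strand setting not given in the sources used here. The deposited signal values are counts scaled by the authors, with 1 factor for each library: 100% of the values came out as whole reads, within 0.001, after division by a library's own step. The test was limma 3.58.1 in R 4.3.3, on log2(deposited value + 1), with the trend option and 1 mean per group, over all 15 libraries (11 residual degrees of freedom). A gene passed at a Benjamini-Hochberg adjusted p below 0.05 over 17030 genes. Fold changes are on this log2(value + 1) scale, which understates the change of low genes. Alternatives were edgeR 4.0.16, DESeq2 1.42.0 and voom on recovered reads, other pseudocounts (0.5 and 5), another or no filter, 2 other scalings, sample weights, fits of only the groups compared, a replicate block, and libraries left out. Replicate pairs differed by more than counting noise (mean chi-square per gene 7.15 to 77.0, genes with at least 20 reads over the pair). The scripts were tested on simulated data. Exon lengths and positions came from GENCODE M21 (GRCm38), promoters from RefSeq (GRCm38.p6). The 9 genes and the lists were chosen with earlier results of these data known. Named beside the 9 are, of each list, up to 4 genes that passed with the smallest p, and the 5 genes most like their mean. A gene named outside that rule was chosen after its values were seen.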

Additional observations from a re-analysis of the deposited data

Results flagged for a closer look

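Neu4 in KO cortex was far from even: replicate 2 stood at 231 normalized counts, and the other 3 libraries lay between 173 and 180.1. The gap to the nearest library was 0.872 of the range of the group, above Dixon's 95% critical value for 4 libraries. Of 27 groups of 4 libraries examined over the 9 genes, this was the only one past that value, and chance alone would put about 1 in 20 past it. KO cortex 2 was also the highest of its group for Pdgfra, Lhfpl3, Gpr17, Bcas1 and Vcan, within the allowed gaps.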

How the results depend on the processing

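The count of the 9 genes that passed remained 0 between KO and WT in both tissues and for the difference of the effects under every alternative run. It ran from 6 to 9 in the WT tissue comparison and from 6 to 7 in the KO one with 1 library left out, and from 7 to 9 and from 6 to 8 under the other alternatives. Over all genes, 7564 to 9241 passed in WT and 5413 to 6769 in KO with 1 library left out. Under the other alternatives, the replicate block included, 7609 to 9846 passed in WT and 5283 to 6849 in KO. No tissue difference of the 9 genes changed direction. Lhfpl3, Bcas1, Neu4, Vcan and Enpp6 passed in both tissue comparisons under every alternative run. The KO effects that changed sign passed in no fit, and the cause was not tested. With upper quartile scaling the log2 fold changes that changed sign were, for KO against WT in cortex Cspg4 1.4e-05. With sample weights the log2 fold changes that changed sign were, for KO against WT in striatum Lhfpl3 -0.088 and C1ql1 0.082, and for the difference of the KO effects Pdgfra -0.0035, Cspg4 0.00031 and C1ql1 0.044. Without striatum KO 4 and WT 8 the log2 fold changes that changed sign were, for KO against WT in striatum Cspg4 0.015, Lhfpl3 -0.0010, Gpr17 0.078, C1ql1 0.083 and Vcan 0.021, and for the difference of the KO effects Cspg4 0.019 and Gpr17 0.14. Without striatum KO 4 and WT 5 the log2 fold changes that changed sign were, for KO against WT in striatum Lhfpl3 -0.18 and C1ql1 0.079, and for the difference of the KO effects Pdgfra -0.014. With 1 library left out, the log2 fold changes that changed sign ran, for KO against WT in cortex, from -0.051 to 0.12 for Pdgfra, -0.13 to 0.067 for Cspg4, -0.12 to 0.016 for Gpr17, -0.18 to 0.098 for Bcas1, -0.11 to 0.20 for C1ql1, -0.19 to 0.012 for Neu4, -0.054 to 0.11 for Vcan and -0.027 to 0.39 for Enpp6. With 1 library left out, the log2 fold changes that changed sign ran, for KO against WT in striatum, from -0.028 to 0.13 for Pdgfra, -0.10 to 0.0037 for Cspg4, -0.086 to 0.10 for Lhfpl3, -0.23 to 0.079 for C1ql1, -0.17 to 0.0023 for Vcan and -0.48 to 0.15 for Enpp6. With 1 library left out, the log2 fold changes that changed sign ran, for the difference of the KO effects, from -0.045 to 0.13 for Pdgfra, -0.11 to 0.095 for Cspg4, -0.20 to 0.020 for Lhfpl3, -0.25 to 0.057 for Gpr17, -0.46 to 0.00032 for Bcas1, -0.32 to 0.061 for C1ql1 and -0.26 to 0.0028 for Neu4. The call of C1ql1 in KO was also lost with no filter on low values (limma adjusted p = 0.0664), with TMM scaling (0.0509) and with upper quartile scaling (0.0504). That of Gpr17 in WT was lost with only the groups compared (0.0626) and without KO striatum 4 and WT striatum 8 (0.101). With sample weights Cspg4 passed in WT (0.0496) and Gpr17 in KO (0.0448). Over all genes, the count that passed between KO and WT in striatum, 13, ran from 0 with only the groups compared to 320 with DESeq2 and 862 without KO striatum 4 and WT striatum 8. The replicate numbers occur in both tissues of a genotype. Same-numbered libraries of the 7 pairs correlated at 0.0037 to 0.14 in their deviations from the group means, above 0.1 in 2 pairs, where every pair was required to be above it for the numbers to count as pairing. Of the 7 cortex libraries with a same-numbered striatum library, 6 correlated best with their own number, a hint from the data and not from the design, and the labels do not say whether an animal is shared. With the replicate block 8 of the 9 passed in WT, 7 in KO and 0 for the difference of the effects. Gpr17 then passed in KO (0.0371) and C1ql1 did not (0.106). KO and WT share no number, so no block could be fitted between them. The 3 or 4 libraries a group limit the precision, which the intervals give.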
